A study of Mus musculus with 6 samples.

Results

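Notch signalling was examined in the hypoxic lung through 10 genes, namely the receptor genes Notch1, Notch2, Notch3 and Notch4, the ligand genes Jag1, Jag2 and Dll4, and the HEY target genes Hey1, Hey2 and Heyl. Each was taken by its symbol from the 25428 probe sets of the expression table, and all 10 were found, with 1 probe set each. Expression was measured in lung lobes of 6 adult male mice with 1 GeneChip array (Mouse Gene 2.0 ST) for each mouse. The 3 Nfat5fl/fl mice (controls) carry an Nfat5 gene with an exon flanked by recombination sites. The 3 Nfat5(SMC)-/- mice carry the same floxed gene, and in them that exon was to be deleted in smooth muscle cells (SMCs). The deletion used a tamoxifen-inducible Cre recombinase driven by the smooth muscle myosin heavy chain promoter. By the study's methods both came from the same cross with the Cre line, and the controls received the carrier oil instead of tamoxifen, so tamoxifen and loss of Nfat5 cannot be told apart, and the construct that carries the Cre is present in males only. All mice had breathed 10% oxygen for 7 days. In each genotype the mice are numbered 1, 2 and 4, as in the sample labels, and values below follow that order. The levels are log2 signals, and differences are Nfat5(SMC)-/- minus control.

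Notch receptors sit in the membrane and are activated by ligands of the Jagged and Delta-like families on a neighbouring cell. Proteolytic cleavage then frees the intracellular part of the receptor, which enters the nucleus, binds the DNA-binding protein RBPJ and turns on target genes, among them the transcriptional repressors of the HES and HEY families. In blood vessels JAG1 of the endothelium activates NOTCH3 of the surrounding SMCs and pericytes, while DLL4, NOTCH1 and NOTCH4 act largely within the endothelium, and NOTCH3 is known from humans and rodents for its part in pulmonary hypertension. A lung lobe holds all of these cells, and fewer cells of a type cannot be told apart from less RNA per cell.

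Among the members, Hey2 was the one whose levels did not overlap between the genotypes, and its promoter is therefore shown with those of Lfng and Hes5, other genes of the pathway known as Notch targets. The windows run from 250 bases before to 50 bases after the start of the gene and come from RefSeq (assembly GRCm38.p6). Of the 10 members 8 had a window there. The capitals mark the core of the RBPJ site, TGGGAA, on either strand. The Hey2 window lies at chr10:30842734-30843033 (minus strand), the Lfng window at chr5:140607091-140607390 (plus strand) and the Hes5 window at chr4:154960673-154960972 (plus strand).
Hey2: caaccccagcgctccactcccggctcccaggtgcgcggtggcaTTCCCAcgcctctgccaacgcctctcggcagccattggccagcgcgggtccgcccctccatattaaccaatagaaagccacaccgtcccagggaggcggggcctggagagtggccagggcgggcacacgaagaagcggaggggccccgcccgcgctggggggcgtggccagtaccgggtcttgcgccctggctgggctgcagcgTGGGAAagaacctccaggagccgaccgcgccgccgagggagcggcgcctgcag
Lfng: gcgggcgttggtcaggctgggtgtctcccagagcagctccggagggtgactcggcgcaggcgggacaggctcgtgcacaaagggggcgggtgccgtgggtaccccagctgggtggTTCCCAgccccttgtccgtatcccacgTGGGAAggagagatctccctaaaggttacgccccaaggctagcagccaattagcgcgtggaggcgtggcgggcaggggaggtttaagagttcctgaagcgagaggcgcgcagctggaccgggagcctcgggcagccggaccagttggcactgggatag
Hes5: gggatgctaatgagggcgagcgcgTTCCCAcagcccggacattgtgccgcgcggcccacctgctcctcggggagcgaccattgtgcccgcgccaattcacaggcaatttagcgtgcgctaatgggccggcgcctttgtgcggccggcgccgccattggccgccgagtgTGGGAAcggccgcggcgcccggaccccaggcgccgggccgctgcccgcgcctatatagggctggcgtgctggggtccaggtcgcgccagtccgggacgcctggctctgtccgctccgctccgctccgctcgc

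In the Hey2 window 1 core on the opposite strand begins 207 bases before the start, and 1 core on the gene's own strand begins 3 bases before the start and runs across it. Lfng has cores 135 and 108 bases before the start and Hes5 has cores 226 and 82 bases before it. Among other listed targets with a window, Hes7 held 1 core. Nrarp, Hes6, Efnb2, Gja4, Gja5, Unc5b, Rgs5, Nkd1, Ephb4 and Nr2f2 held none. A window of Rbpj and that of Kat2a, which are not listed as targets, held 2 each. The printed windows therefore do not stand for Notch targets as a group. Of 32841 windows of the same length 25.6% held the letters TGGGAA on either strand and 3.78% held them at 2 or more places. None of the other 7 members with a window (Notch1, Notch2, Notch3, Notch4, Jag1, Jag2 and Dll4) held the core. The letters TGGAAA, the core of the site that NFAT proteins bind, were in 21.4% of windows and in 0 of the 8 windows of members. The 2 cores differ in 1 letter and cannot match at the same place. These are matches of letters, and no binding was measured.

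Nfat5, the targeted gene, was checked first. Control lungs had 9.18, 8.62 and 9.21 and Nfat5(SMC)-/- lungs 8.23, 7.72 and 7.89, and every Nfat5(SMC)-/- lung lay below every control. The difference was -1.06 (SE 0.20), with adjusted p = 0.0707 in limma, and -1.20 without Nfat5(SMC)-/- mouse 1 (adjusted p = 0.0440). Which probes lie in the deleted stretch is not known here, and cells other than SMCs keep the gene. 2 lungs are treated below as standing apart, 1 by its whole array and 1 by a brown fat gene. The array of Nfat5(SMC)-/- mouse 1 lay at 55.8 on the first principal component (49.6% of the variance). The other Nfat5(SMC)-/- lungs lay at 3.12 and 3.57 and the controls at -21.6 to -20.1. The lung of control mouse 2 had more of the brown fat gene Ucp1 than the other controls (8.42 against 4.47 and 4.32). On the first component control mouse 2 lay with the other controls (-20.8). Results below are given with and without these lungs where they matter. Over all probe sets 0.818% (208) passed an adjusted p of 0.05, a count that was 980 without Nfat5(SMC)-/- mouse 1 and 0 without any 1 of the other lungs. Further, 19.3% passed an unadjusted p of 0.05 (8.19% higher and 11.1% lower in Nfat5(SMC)-/- lungs), and in 26.9% the groups did not overlap (11.8% higher and 15.0% lower).

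Against this background few differences between the genotypes were called among the Notch genes, and some intervals were wide. The 95% intervals of limma reached 2.21-fold for Hey1, 1.67-fold for Heyl and 1.56-fold for Notch4, so differences up to that size were not excluded. Of the 10 members, limma called 0 after adjustment over all probe sets and 1, Hey2, at an unadjusted p under 0.05, and the methods' t-test gave the same counts. The groups of 1 member in 10 did not overlap, again Hey2, a share below the 26.9% of all probe sets. The median difference of the 10 members was 0.025 on the log2 scale (-0.00081 over all probe sets), with 6 members higher and 4 lower. The lung of Nfat5(SMC)-/- mouse 1 was the lowest of all 6 in 5 members and the highest in 2. Nfat5(SMC)-/- mouse 2 was the lowest or the highest in 4 members and mouse 4 in 5, and each control in 1 or 2. Over all probe sets Nfat5(SMC)-/- mouse 1 was the lowest or the highest in 62.7%, against 21.97% to 34.69% for each other lung.

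**Figure D1:**
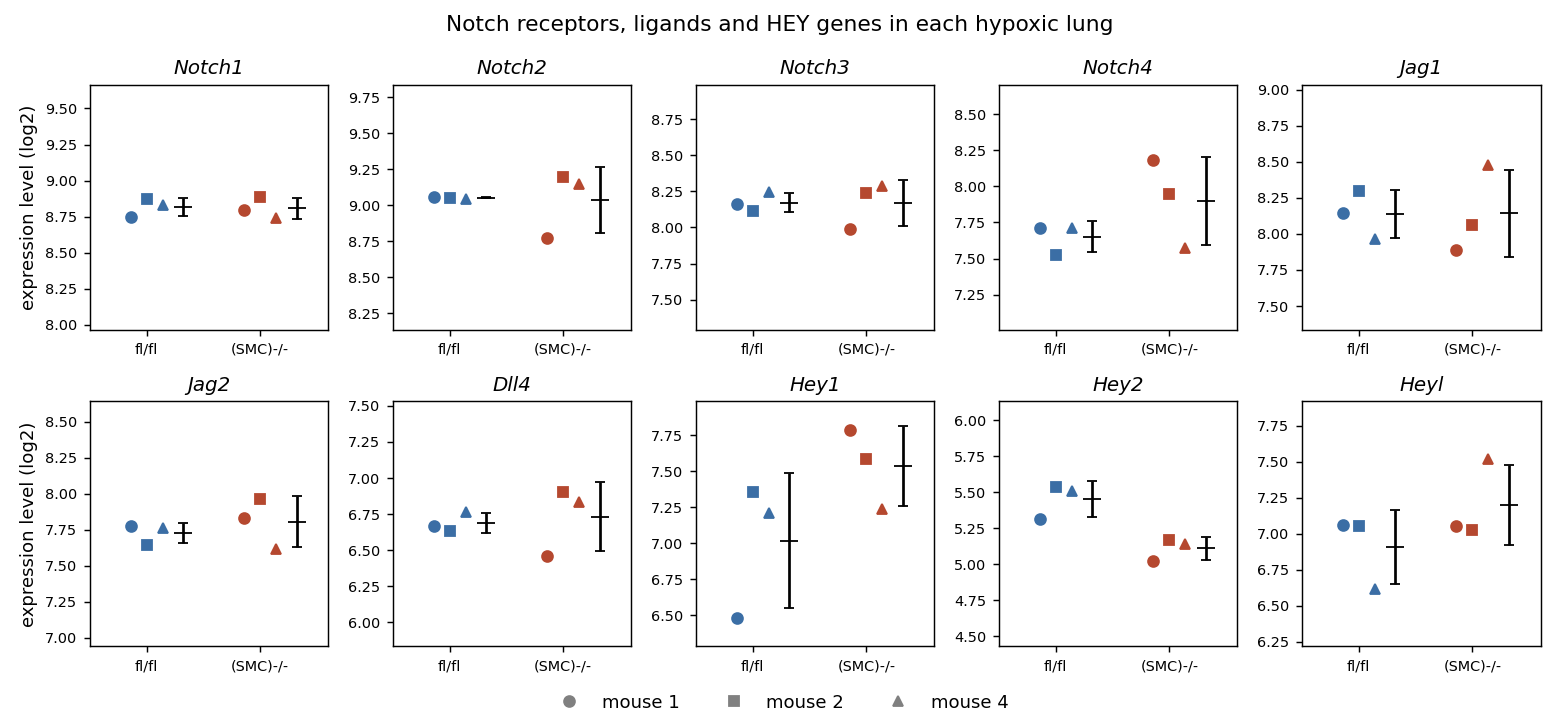
Expression level (log2, y axis) of the 10 genes in each lung, controls in blue and Nfat5(SMC)-/- lungs in red, with the mouse number given by the shape of the point and the mean ± SD (n = 3) as a black bar; every panel spans the same number of log2 units. Hey2 is the gene in which all 3 Nfat5(SMC)-/- lungs (5.02 to 5.17) lie below all 3 controls (5.31 to 5.54).

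The levels of 3 of the 4 receptors were nearly the same in both genotypes. Notch1, which acts in endothelium, epithelium and lymphocytes, was at 8.75, 8.87 and 8.83 in controls and at 8.80, 8.88 and 8.74 in Nfat5(SMC)-/- lungs. Its difference was -0.0099 (SE 0.071, 95% interval -0.18 to 0.16), so that a fall beyond 0.881-fold or a rise beyond 1.12-fold lay outside the interval. The 6 values of Notch1 were interleaved.

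Notch3, a receptor found mainly on SMCs and pericytes, was at 8.16, 8.11 and 8.24 in controls and at 7.99, 8.24 and 8.29 in Nfat5(SMC)-/- lungs. The means were 8.17 ± 0.07 and 8.17 ± 0.16 (SD, n = 3 each), and the difference of -0.00092 (SE 0.097) had a 95% interval of -0.24 to 0.24, which covers 0.848-fold to 1.18-fold. The lung of Nfat5(SMC)-/- mouse 1 was below all controls and that of mouse 4 above all of them. Without mouse 1 the difference was 0.09 (adjusted p = 0.535 in limma).

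Notch2, a receptor shared by epithelium, macrophages and vessel wall cells, was at 9.06, 9.05 and 9.05 in controls and at 8.78, 9.20 and 9.14 in Nfat5(SMC)-/- lungs. The control lungs were within an SD of 0.0043 of each other, while the SD of the Nfat5(SMC)-/- lungs was 0.23, since mouse 1 lay below the controls and mice 2 and 4 above them. The difference was -0.013 (95% interval -0.31 to 0.28) with all lungs and 0.12 without mouse 1 (adjusted p = 0.316).

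Notch4, the receptor that is largely restricted to endothelium, was at 7.71, 7.53 and 7.71 in controls and at 8.18, 7.94 and 7.58 in Nfat5(SMC)-/- lungs. Mice 1 and 2 lay above all controls and mouse 4 within their range. The difference of 0.25 (SE 0.16, 95% interval -0.14 to 0.64) had an adjusted p of 0.456. It was 0.41 without Nfat5(SMC)-/- mouse 4 (adjusted p = 0.147), 0.11 without mouse 1, and 0.05 without mouse 1 and control mouse 2.

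The 3 ligands had mean differences under 0.1. Jag1, which presents the signal from endothelium to SMCs, was at 8.15, 8.30 and 7.97 in controls and at 7.89, 8.06 and 8.48 in Nfat5(SMC)-/- lungs. Nfat5(SMC)-/- mouse 1 was below and mouse 4 above the whole range of the controls, and the difference was 0.0060 (SE 0.17, 95% interval -0.40 to 0.42). Its sign turned without control mouse 4 (-0.08) and without Nfat5(SMC)-/- mouse 4 (-0.16).

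Jag2, a ligand of the same family found in arterial endothelium and airway basal cells, was at 7.77, 7.65 and 7.76 in controls and at 7.83, 7.96 and 7.61 in Nfat5(SMC)-/- lungs, a difference of 0.08 (95% interval -0.18 to 0.33). Dll4, the Delta-like ligand of arterial and sprouting endothelium, was at 6.67, 6.63 and 6.76 in controls and at 6.46, 6.90 and 6.84 in Nfat5(SMC)-/- lungs. For both genes 2 Nfat5(SMC)-/- lungs were above and 1 below all controls, the one below being mouse 4 for Jag2 and mouse 1 for Dll4. The difference of Dll4 was 0.04 (95% interval -0.27 to 0.36) and 0.18 without mouse 1 (adjusted p = 0.213).

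**Figure D2:**
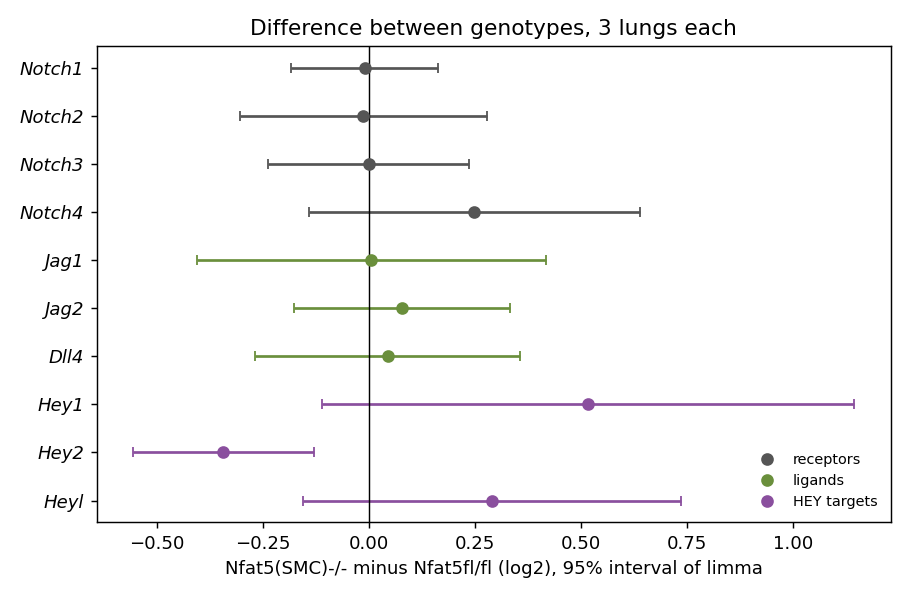
Difference of each gene between Nfat5(SMC)-/- and control lungs (x axis, log2), with its 95% interval from limma (3 lungs per group) and the role of the gene as the colour. The interval of Hey2 (-0.56 to -0.13) lies below 0, while those of the other 9 genes include 0, and the points of Hey1 (0.52) and Hey2 (-0.34) lie farthest apart.

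The HEY genes, which encode basic helix-loop-helix repressors, had differences of unlike sign. Hey2, the homolog of the zebrafish gridlock gene that acts in arteries and heart, had 5.31, 5.54 and 5.51 in controls and 5.02, 5.17 and 5.14 in Nfat5(SMC)-/- lungs, all 3 below every control. The means were 5.45 ± 0.12 and 5.11 ± 0.08 (SD, n = 3 each). The difference of -0.34 (SE 0.09, 95% interval -0.56 to -0.13), or 1.27-fold lower, did not pass in limma (adjusted p = 0.112). The signal was close to the median of the arrays (4.96).

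With each lung left out in turn the difference of Hey2 lay between -0.41 and -0.30. Leaving out both lungs that stood apart gave -0.26 (adjusted p = 0.189). Array weights, which count lungs that stand apart less, gave -0.33 with an adjusted p of 0.0296, the lowest over 16 alternatives and the single one under 0.05, while the highest was 0.349. Those weights also raised the calls over all probe sets from 208 to 3263.

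Hey1, another HEY repressor of the arterial wall, was at 6.49, 7.36 and 7.21 in controls and at 7.78, 7.59 and 7.24 in Nfat5(SMC)-/- lungs. Its control lungs spread more widely than those of any other member (SD 0.47), with mouse 1 far below mice 2 and 4, and Nfat5(SMC)-/- mouse 4 lay within their range. The difference of 0.52 (SE 0.26, 95% interval -0.11 to 1.14) had an adjusted p of 0.340. With 1 lung left out it lay between 0.25, without control mouse 1, and 0.69, without control mouse 2 (adjusted p = 0.298 in limma).

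Heyl, a target of NOTCH3 in mural cells, was at 7.06, 7.06 and 6.62 in controls and at 7.05, 7.03 and 7.52 in Nfat5(SMC)-/- lungs. In both genotypes mouse 4 stood apart from mice 1 and 2, downward in the control and upward in the Nfat5(SMC)-/- lung, and the other 4 lungs lay between 7.03 and 7.06. The difference was 0.29 (SE 0.18, 95% interval -0.16 to 0.74), and 0.14 without the control or 0.13 without the Nfat5(SMC)-/- lung of mouse 4. With another lung left out it reached up to 0.38, and array weights gave 0.44 (adjusted p = 0.174 in limma).

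After their signs had been seen, the HEY genes were also compared within each lung, as a description. The log2 level of Hey1 minus that of Hey2 was 1.17, 1.82 and 1.70 in controls and 2.76, 2.42 and 2.09 in Nfat5(SMC)-/- lungs, without overlap. The shift between genotypes was 0.86. Hey2 minus Heyl shifted by -0.63, also without overlap, and Hey1 minus Heyl by 0.23 with overlap. Hey2 alone already separated the genotypes, and no test is given, since the smallest p that exact permutation allows with 3 lungs a side is 0.1. Such a difference between probe sets holds no ratio of transcripts, and only its shift between lungs was read.

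The other genes of the pathway were described from lists of textbook roles. Of 71 such genes, all measured, limma called 0 after adjustment (0 also with the methods' t-test). At an unadjusted p under 0.05 limma had 15 higher and 12 lower, and the methods' t-test 17 in all. Without Nfat5(SMC)-/- mouse 1 limma called 5 (Mib1, Mfng, Adam10, Rbpj and the corepressor gene Tle1, the latter named after its values were seen), and 0 without any 1 of the other lungs. The groups did not overlap in 15 genes that were higher and 11 that were lower in Nfat5(SMC)-/- lungs. 64 of the 71 lay above the median level, where 32.7% of probe sets had an unadjusted p under 0.05 and 36.4% had no overlap. The median difference of the 71 was 0.018. Of each role the gene with the smallest p is named below. A few others, named after their values were seen, are said to be so.

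On the side of the signal-sending cell, Mib1, the ubiquitin ligase that drives the endocytosis of ligands, had the lowest difference in the pathway. It was at 8.41, 8.05 and 8.14 in controls and at 7.60, 7.40 and 7.50 in Nfat5(SMC)-/- lungs, so that the groups lay well apart. The difference of -0.70 (SE 0.11, 95% interval -0.98 to -0.42) had an adjusted p of 0.0572 in limma. It was -0.75 without Nfat5(SMC)-/- mouse 1 (adjusted p = 0.0431) and -0.56 after a correction for gene span (adjusted p = 0.0917). Of the 4 genes of ligand activation 1 was lower and 3 higher. The 5 remaining ligand genes had differences between -0.11 and 0.23 and included Dlk1, a non-canonical ligand, at 0.23 (adjusted p = 0.411).

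Of 5 glycosyltransferases that modify the receptors and tune their choice of ligand 4 were higher. Manic fringe (Mfng) was at 6.44, 6.53 and 6.35 in controls and at 6.76, 7.03 and 6.91 in Nfat5(SMC)-/- lungs, without overlap. Its difference was 0.46 (SE 0.09, adjusted p = 0.0748), and 0.53 without Nfat5(SMC)-/- mouse 1 (adjusted p = 0.0393). Lunatic fringe (Lfng), whose promoter is printed above and which was picked for that after its values were seen, was at 7.73, 8.17 and 8.19 in controls and at 9.13, 8.56 and 8.21 in Nfat5(SMC)-/- lungs. Its groups were separated by a margin of 0.02 between control mouse 4 and Nfat5(SMC)-/- mouse 4, and the difference of 0.61 had an adjusted p of 0.264. It was 0.36 without Nfat5(SMC)-/- mouse 1.

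Among 10 genes that cleave the receptor 5 were higher and 5 lower. Furin, which cuts the receptor during its passage through the Golgi, was at 8.76, 9.12 and 8.88 in controls and at 9.51, 9.38 and 9.27 in Nfat5(SMC)-/- lungs, a difference of 0.47 (adjusted p = 0.110). Adam10, the protease that cuts the receptor after ligand binding, was named after its values were seen and was at -0.33 (adjusted p = 0.149), also without overlap. Without Nfat5(SMC)-/- mouse 1 it was at -0.43 (adjusted p = 0.0423), and after the correction for gene span at -0.19.

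In the nucleus 7 of the 9 genes of the activating complex were lower, with a median of -0.29. Rbpj, the DNA-binding partner of every Notch receptor, was at 5.90, 5.86 and 5.85 in controls and at 5.25, 5.54 and 5.36 in Nfat5(SMC)-/- lungs. The difference was -0.49 (SE 0.09, 95% interval -0.71 to -0.27, adjusted p = 0.0665), and -0.42 without Nfat5(SMC)-/- mouse 1 (adjusted p = 0.0494). After the correction for gene span it was -0.35 (adjusted p = 0.118 in limma). The Mastermind-like coactivators, looked at after their values were seen, had different signs. Maml1 was at 0.69 (adjusted p = 0.0904), Maml2 at -0.56 (adjusted p = 0.214) and Maml3 at -0.50 (adjusted p = 0.362), and Maml3 was the one of the 3 with overlap. Without Nfat5(SMC)-/- mouse 1 Maml3 was at -0.22, and without mouse 4 at -0.77. Without Nfat5(SMC)-/- mouse 2 Maml2 was at -0.33. With the span correction Maml1 was at 0.75, Maml2 at -0.38 and Maml3 at -0.32. Of 11 corepressors 4 were higher and 7 lower, with Ncor1 at -0.59 (adjusted p = 0.109) and at -0.43 after that correction.

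**Figure D3:**
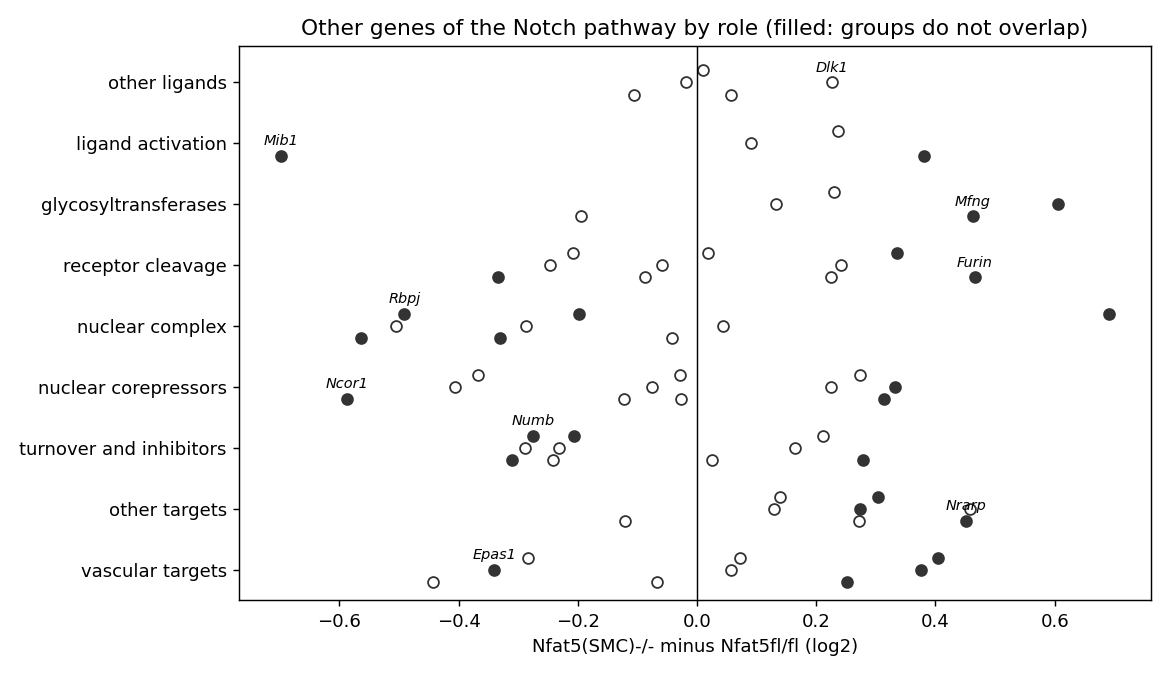
Difference between Nfat5(SMC)-/- and control lungs (x axis, log2) of 71 other genes of the Notch pathway, 1 point each, by role (y axis); filled points are genes whose 3 Nfat5(SMC)-/- lungs do not overlap the 3 controls, and the gene with the smallest p in each role is labelled. Filled points lie on both sides of 0, from Mib1 at -0.70 to Maml1 at 0.69.

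Further targets lay mostly on the higher side. Of 8 target genes outside the HEY family 7 were higher (median 0.27), 4 of them at an unadjusted p under 0.05. These were Nrarp and, named after their values were seen, Ccnd1, Myc and Hes7. Of all probe sets 8.19% were higher at that level, and 32.7% passed it in either direction among those above the median level. The mean levels of Hes2, Hes5 and Hes7 lay below that median (4.96). Nrarp, a target gene whose product limits Notch signalling in return, was at 7.09, 7.36 and 7.20 in controls and at 7.72, 7.72 and 7.55 in Nfat5(SMC)-/- lungs, a difference of 0.45 (SE 0.10, 95% interval 0.22 to 0.68, adjusted p = 0.0812) without overlap. Hes1 and Hes5, the best known of the HES targets and named after their values were seen, were at -0.12 (adjusted p = 0.764) and 0.14 (adjusted p = 0.449). Without Nfat5(SMC)-/- mouse 1 they were at 0.024 and 0.076. The level of Hes5 lay between 4.09 and 4.43, close to the arrays' lower quartile (4.30), where a change could be missed.

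The 10 genes of turnover and inhibition had 4 higher and 6 lower, with Numb, which directs the receptor to degradation, at -0.27 (adjusted p = 0.171) and at -0.12 after the correction for gene span. Of 9 genes of vascular identity that stand downstream of or beside Notch in vessels 5 were higher and 4 lower. Epas1, the HIF-2 alpha gene of endothelium, had the smallest p among them, at -0.34 (adjusted p = 0.0995) and at -0.21 after that correction.

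Levels of cell type markers moved with genotype to a different extent in each list. The 15 endothelial markers had a median of -0.22, with 10 lower and 6 of these without overlap, against 15.0% of all probe sets that were lower without overlap and 36.4% without overlap in either direction among those above the median level. Their mean level was 9.76 to 10.02 in controls and 9.67 to 9.82 in Nfat5(SMC)-/- lungs. Pecam1 was at -0.22 (adjusted p = 0.194) and Cdh5 at -0.31 (adjusted p = 0.240), both without overlap. Of the 15, limma called 0 after adjustment and 6 at an unadjusted p under 0.05. That level was passed by 19.3% of all probe sets and 32.7% of those above the median level. Without Nfat5(SMC)-/- mouse 1 Cdh5 was at -0.18, and without both lungs that stood apart Cdh5 was at -0.15 and Pecam1 at -0.13. Of the 8 markers of arterial endothelium 7 were lower (median -0.13) and Gja4 was at 0.056. Of the members placed above in endothelium or the arterial wall, Hey2 was at -0.34 and Notch1 at -0.0099. Jag1 was at 0.0060, Dll4 at 0.045, Jag2 at 0.077, Notch4 at 0.25 and Hey1 at 0.52. The signs of Notch1, Jag1, Jag2 and Dll4 turned under some alternatives. The part of endothelial content in these values was not tested.

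The mean level of the smooth muscle and pericyte markers overlapped between the genotypes. It was 7.63 to 7.89 in controls and 7.66 to 7.74 in Nfat5(SMC)-/- lungs, with 6 of 14 higher and 8 lower and a median of -0.09. Myh11 was at -0.15 (adjusted p = 0.556), Acta2 at -0.17 (adjusted p = 0.594) and Pdgfrb at -0.24 (adjusted p = 0.560). Over all probe sets 19.3% had an unadjusted p under 0.05 in limma and 26.9% had no overlap. In this list limma called 0 of the 14 after adjustment and 2 at an unadjusted p under 0.05. These 2, Smtn at 0.17 and Higd1b at -0.31, named after their values were seen, were also the ones without overlap. Single lungs moved the values. Without control mouse 2 Acta2 was at -0.32 (adjusted p = 0.237) and Myh11 at -0.27 (adjusted p = 0.201), without control mouse 4 they were at -0.048 and -0.057, and without Nfat5(SMC)-/- mouse 1 Pdgfrb was at -0.0085. Notch3 and Heyl, which mark the same cells, were given above at -0.00092 and 0.29.

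Fat cell markers were the list that differed most. All 14 were higher, 5 of them after adjustment, against 0.818% of all probe sets called in either direction. Their mean level was 5.84 to 6.91 in controls and 8.04 to 8.67 in Nfat5(SMC)-/- lungs. Adipoq, an adipokine gene, was at 2.49 (adjusted p = 0.0741, and 0.0404 without Nfat5(SMC)-/- mouse 1) and Ucp1, the uncoupling protein of brown fat, at 3.17 (adjusted p = 0.197). Fat tissue holds vessels and Notch genes of its own, and its part in the Notch values was not tested. The mean levels of 14 lung epithelial markers (10.85 to 11.02 and 10.78 to 11.02), 14 leukocyte markers (6.71 to 7.04 and 6.92 to 7.23) and 10 cardiac muscle markers (6.90 to 7.29 and 6.69 to 7.27) overlapped between controls and Nfat5(SMC)-/- lungs. Those of 10 fibroblast markers did not (8.74 to 8.85 and 8.89 to 9.01). The fibroblast markers differed in sign, with 8 higher (4 without overlap) and 2 lower (both without overlap). Over all probe sets 11.8% were higher and 15.0% lower without overlap. Among those above the median level 36.4% had no overlap in either direction.

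**Figure D4:**
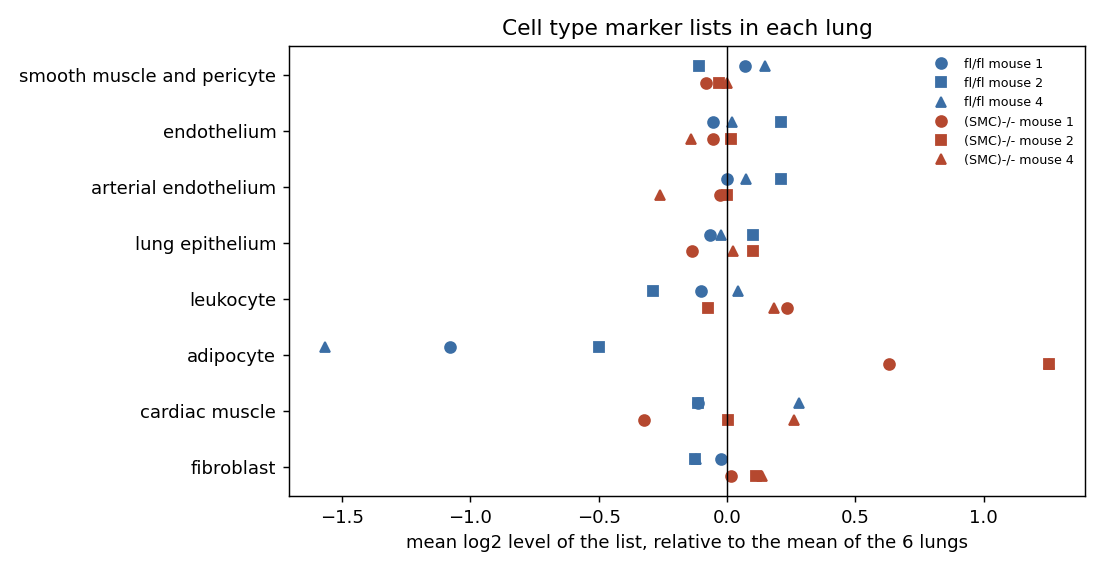
Mean log2 level of each cell type marker list (y axis) in each lung, relative to the mean of the 6 lungs (x axis), controls in blue and Nfat5(SMC)-/- lungs in red, with the mouse number given by the shape of the point; the adipocyte symbols of Nfat5(SMC)-/- mice 2 and 4 coincide. The adipocyte list separates the genotypes by the widest margin, and the smooth muscle list overlaps.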

How the data were processed

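The deposited values are log2 expression levels, which the authors made from GeneChip Mouse Gene 2.0 ST arrays with RMA (version not given in the sources used here), quantile normalisation and a custom chip definition of version 22 with 1 probe set per Entrez gene. The log2 scale was read from the range of the values and the use of RMA. Quantile normalisation gives all arrays 1 distribution, so values are relative to the other genes. Where levels of different probe sets were subtracted or averaged within a lung, only shifts between lungs were read. Symbols came from the platform table, updated through a RefSeq gene table (25269 of 25428 probe sets had 1).

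Differences (Nfat5(SMC)-/- minus Nfat5fl/fl) were tested over all probe sets with limma 3.58.1 in R 4.3.3 (lmFit, eBayes, two-sided, no covariate, no filter) and Benjamini-Hochberg adjustment at 0.05. The test was also run on simulated data with known differences. The number of arrays limits the precision. The p-values set each difference against the spread between mice within both groups, which limma draws towards that of all probe sets. The files used here hold no scan date or batch. 16 alternatives were run: the methods' t-test (for 2 groups the same as the one-way analysis of variance that the methods name for the arrays), other priors, array weights, cyclic loess, 2 filters on level, the mouse number as a block, a loess correction for gene span (curve span 0.3), each lung left out, and both lungs that stood apart left out. Members, lists and alternatives were chosen with earlier results of these data known. All members and Nfat5 are named, with the gene of smallest p in each role.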

Additional observations from a re-analysis of the deposited data

How the results depend on the processing

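No member passed in any of the 16 alternatives except Hey2 with array weights (1 member called), and 0 members were called with any lung left out. Over all genes named with alternatives 26 values turned sign, and none of these turned values was over 0.17 in size. The difference of Notch1 turned positive with array weights (0.0043), cyclic loess (0.0061), span correction (0.071) and both lungs that stood apart left out (0.023), that of Notch2 with 0.10, 0.0053, 0.14 and 0.12, and that of Notch3 with 0.034, 0.011, 0.080 and 0.060. Dll4 was at -0.0069 after span correction and without both lungs Pdgfrb was at 0.0015 and Hes1 at 0.12. With 1 lung left out the ranges were -0.048 to 0.023 for Notch1, -0.092 to 0.12 for Notch2, -0.058 to 0.090 for Notch3, -0.16 to 0.13 for Jag1, -0.0031 to 0.17 for Jag2, -0.041 to 0.18 for Dll4 and -0.25 to 0.024 for Hes1. Notch4, Hey1, Hey2 and Heyl kept their sign in all 16.

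The count over all probe sets (208) was 0 in the methods' t-test and with the block, 2 with a mean-dependent prior, 3263 with array weights, 1 after cyclic loess, 112 above the median level, 41 after span correction, 0 to 980 with 1 lung left out (980 without Nfat5(SMC)-/- mouse 1, 0 without any other) and 1452 without both lungs. At an unadjusted p under 0.05 the methods' t-test called 3951 and the block 4994. The wider pathway (0 called) had 17 genes with array weights, 5 without Nfat5(SMC)-/- mouse 1 (0 to 5 with 1 lung left out) and 8 without both lungs. Nfat5 passed with array weights (-1.29, adjusted p = 0.0089) and without both lungs (-1.39, adjusted p = 0.0257), in a range of -1.25 to -0.94 with 1 lung left out (-1.20 without Nfat5(SMC)-/- mouse 1, where it passed). The causes of these changes were not tested.

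Over all probe sets the deviations from the group means correlated at 0.133, 0.411 and 0.078 between same-numbered mice. Between mice of different numbers they correlated at -0.329 to 0.145. The labels do not say what a number stands for. The mice were taken as unpaired, and whether the numbers mark pairs is not known here. With the mouse number as a replicate block 0 members and 0 of all probe sets were called, and Hey2 was at -0.34 (adjusted p = 0.122 in limma). With 3 lungs per group and dim probe sets such as Hes5 and Dlk1 near the lower quartile, small changes could be missed. The alternatives for Lfng, Adam10, Maml1, Maml2, Maml3, Hes1 and Hes5 were added after seeing the data.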
